A study of Mus musculus with 90 samples.

Results

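Gene expression was compared between the frontal cortex of 9 APP/PS1 mice that had received an antisense oligonucleotide (ASO) against CD33 and that of 9 APP/PS1 mice that had received a non-targeting control ASO, both after 14 days of infusion. These are the 18 frontal cortex arrays whose titles give 14 days, of 90 arrays in the series. APP/PS1 mice carry human mutant APP and presenilin 1 transgenes and deposit amyloid-beta plaques in the brain, and animals of both groups carried them, so that no non-transgenic tissue entered the comparison. An osmotic pump with a cannula in the right lateral ventricle delivered 40 µg of ASO per day in 6 µL from 18 weeks of age. The pump was taken out after 14 days, and tissue was collected at 22 weeks, after a pump-free interval of 14 days. Every animal had surgery and was housed singly from then on. Tissue came from the left hemisphere, opposite the cannula, and the frontal cortex was everything in front of a single coronal cut at Bregma +1.0 mm, so the piece was not cut along the borders of the cortex. Other arrays of the series served for reference, the 28 frontal cortex arrays of mice infused for 28 days without an interval (14 per ASO) and the 18 hippocampal arrays of mice infused for 14 days (9 per ASO). The 28-day animals are other animals with their own controls. Of the 14-day animals, 8 with CD33 ASO and all 9 with control ASO also have a hippocampal array.

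CD33 is a sialic acid-binding receptor of the Siglec family that sits on microglia and other myeloid cells. In humans its cytoplasmic tail carries inhibitory (ITIM) motifs that oppose receptors signalling through the adaptor TYROBP, such as TREM2, and variants of the human gene are associated with the risk of Alzheimer's disease. A gapmer-type ASO pairs with its target RNA and recruits RNase H1, which cuts that RNA. The sources used here give neither the chemistry nor the sequence of the ASOs. In a bulk piece of tissue, fewer cells of a type and less RNA per cell cannot be told apart.

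RNA was measured on Illumina bead arrays, which report a fluorescence signal per probe. Levels below are background-corrected, quantile-normalized log2 signals, so that a difference of 1 is a 2-fold change. Low levels are compressed and the ratios of dim genes are understated. Differences are CD33 ASO minus control ASO, with their standard error, and adjusted p-values come from limma over 9741 genes. A level is comparable between arrays for 1 gene, not between genes. Detected probes (detection p-value under 0.01) made up 47.3% to 51.6% of all probes on the 18 arrays, and arrays of a group correlated at 0.977 to 0.993. The arrays lay on 6 chips, each holding equally many arrays of both ASOs. The first principal component of the 18 arrays, 21.4% of the variance, followed the chip (adjusted R2 0.914) and not the ASO (adjusted R2 -0.045). Labelled tissue was checked on marker genes. Of the defining markers, Rbfox3 (neurons, 13.03 to 13.49), Slc17a7 (excitatory cortical neurons, 12.80 to 13.46), Mbp (myelin, 14.55 to 14.93), Gfap (astrocytes, 9.93 to 10.92) and Aif1 (microglia, 9.18 to 9.88) were detected on every array. The striatal marker Drd2 (7.70 to 8.99) was also detected on all 18, and the olfactory bulb marker Doc2g (5.13 to 6.86) on 6 CD33 ASO and 7 control arrays.

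Cd33, the target, was lower in the CD33 ASO arrays. Its level ranged from 5.79 to 6.64 with a median of 6.40 in the CD33 ASO arrays, and from 6.59 to 7.55 with a median of 7.07 in the control arrays. The highest CD33 ASO array lay just above the lowest control array, and the other 8 lay below all controls. The difference was -0.69 ± 0.17 (n = 9 per group), so that Cd33 stood at 61.8% of control. As a single value tested by an exact two-sided permutation of the ASO labels (48620 arrangements, smallest possible p 4.11e-05), p was 8.23e-05. Among all 9741 genes Cd33 ranked 4 by p, with an unadjusted p of 0.000151 and an adjusted p of 0.327 in limma, so it did not pass the threshold of 0.05. Within the 6 chips the difference lay between -1.15 and -0.41, below 0 in each. The probe was detected on all 18 arrays.

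In the hippocampus of the same cohort the Cd33 difference was -1.28 ± 0.17 (adjusted p 2.79e-05), where all 9 controls but only 2 of the 9 CD33 ASO arrays had a detected signal. In the 8 CD33 ASO animals with both tissues, Cd33 lay between 5.79 and 6.64 in the cortex and between 4.94 and 5.92 in the hippocampus. The cortical difference was smaller than the hippocampal one by 0.59 ± 0.22 in a model with the animal as a random block, with an unadjusted p of 0.0103 and an adjusted p of 0.991. Over all genes that tissue difference called 0, with 458 (4.7%) under an unadjusted p of 0.05. After 28 days of infusion, without an interval, the cortical difference was -0.90 ± 0.13 (53.8% of control, adjusted p 5.04e-05, n = 14 per group), with the probe detected on 10 CD33 ASO and 14 control arrays. Both differences therefore include CD33 ASO levels that were not above background. The 28-day and 14-day cortical differences differed by -0.20 ± 0.21, with an unadjusted p of 0.351. The 14-day cortical value lay nearest to 0 of the 3, and neither of its differences from the others passed the adjusted threshold.

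**Figure D1:**
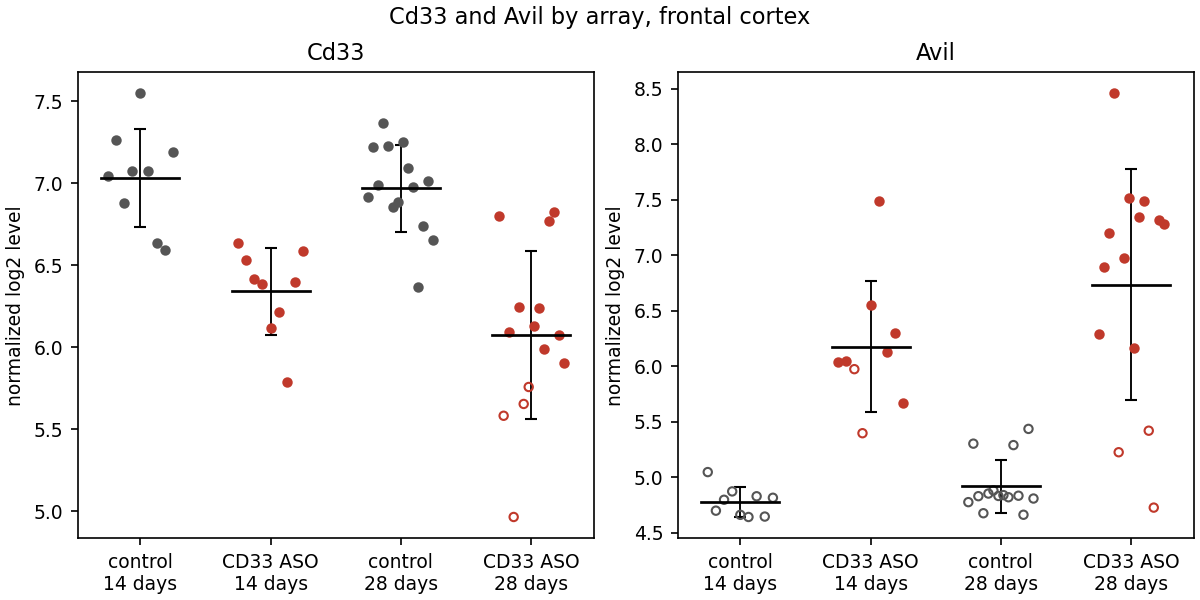
Normalized log2 level of Cd33 (left) and Avil (right) in each frontal cortex array; filled points are detected, open points are not, black lines are group means and bars are SD. At 14 days 8 of 9 CD33 ASO arrays lie below every control for Cd33, and all 9 lie above every control for Avil.

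Across all genes, 0 of 9741 (0%) passed an adjusted p of 0.05 at 14 days, and the smallest adjusted p was 0.216. An unadjusted p under 0.05 was reached by 492 genes (5.05%), against 487 by chance, of which 237 were higher (2.43%) and 255 lower (2.62%) with CD33 ASO. The median absolute difference was 0.0584, and its 95th percentile 0.222. The same model called 46 genes (0.472%) at 28 days, with 840 (8.62%) under an unadjusted p of 0.05. A separate model of the hippocampal arrays called 2 genes (0.0205%) at 14 days, Cd33 and Avil.

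Avil was the gene of smallest p and the only one of 9741 (0.0103%) whose 9 CD33 ASO and 9 control arrays did not overlap. It encodes advillin, an actin-binding protein of the villin and gelsolin family known from sensory neurons. Its level ranged from 5.40 to 7.49 with a median of 6.05 under CD33 ASO and from 4.64 to 5.05 with a median of 4.80 under control ASO. Every CD33 ASO array was above every control array, although no control array and 7 of 9 CD33 ASO arrays detected the probe. Because the control level is below detection, the ratio is a bound of at least 1.29-fold, taken from group mean log2 levels with the control set, per array, to the higher of its own value and the lowest detected signal. The fitted difference was 1.40 ± 0.30, with an adjusted p of 0.216 in the model over the 46 frontal cortex arrays. In a fit on the 18 arrays alone it was called, with an adjusted p of 0.0038, as the only gene. Its difference was 1.80 in the hippocampus at 14 days (adjusted p 0.00104) and 1.82 in the cortex at 28 days (adjusted p 4.76e-06). No control array detected Avil there either, so these ratios too are bounds, of at least 1.55-fold in the hippocampus and at least 1.91-fold at 28 days, with the probe detected on 8 of 9 and 11 of 14 CD33 ASO arrays. Within the 6 chips the 14-day cortical difference of Avil lay between 0.85 and 2.37, where the lack of overlap already puts each above 0.

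The other 9 of the 10 higher genes of smallest p had smaller differences, from 0.16 to 0.53. Nop56, a core protein of the particles that guide ribosomal RNA methylation, ranged from 9.53 to 9.78 (median 9.63) with CD33 ASO and from 9.08 to 9.65 (median 9.36) with control. All 9 CD33 ASO arrays lay above the control median, and the ranges overlapped. The difference of 0.24 ± 0.06 (adjusted p 0.327) was above 0 in 4 of 6 chips, and Nop56 stood at 0.03 at 28 days and 0.01 in the hippocampus. Rspo3, a secreted amplifier of Wnt signalling, ranged from 8.10 to 8.72 (median 8.40) against 7.39 to 8.41 (median 7.98), with a difference of 0.43 ± 0.11 (adjusted p 0.485) and 0.20 at 28 days. Ptprg, a receptor tyrosine phosphatase, ranged from 5.42 to 6.57 (median 5.80) against 4.99 to 5.75 (median 5.40), a difference of 0.53 ± 0.14 (adjusted p 0.485), and was detected on 5 CD33 ASO arrays and 1 control array. In both, every CD33 ASO array lay above the control median and the ranges overlapped. Gria3, an AMPA-type glutamate receptor subunit, differed by 0.37 ± 0.11 with all 9 CD33 ASO arrays above the control median. Mfap2, a component of extracellular microfibrils, differed by 0.28 ± 0.08, and its difference at 28 days, 0.33 ± 0.06, passed the threshold there (adjusted p 0.0021). The remaining ones were the receptor kinase Grk6 (0.32 ± 0.08), Zfp865 (0.36 ± 0.11), the ceramide synthase Cers1 (0.30 ± 0.09) and the mitochondrial protein Letmd1 (0.16 ± 0.05).

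The 10 lower genes of smallest p included Cd33. Gpnmb, a transmembrane glycoprotein of lipid-loaded macrophages and plaque-associated microglia, ranged from 8.94 to 10.38 (median 9.19) with CD33 ASO and from 9.19 to 11.20 (median 10.13) with control. Of the CD33 ASO arrays 8 of 9 lay below the control median, and the ranges overlapped. The difference was -0.81 ± 0.20 (adjusted p 0.327), below 0 in 6 of 6 chips. Vwf, von Willebrand factor of endothelium and platelets, ranged from 8.63 to 9.23 (median 8.96) against 9.00 to 9.69 (median 9.28). Each CD33 ASO array lay below the control median, and the difference of -0.39 ± 0.11 had an adjusted p of 0.656. Fyco1, which links late endosomes and autophagosomes to kinesin, ranged from 8.42 to 9.18 (median 8.67) against 8.74 to 9.50 (median 9.18), a difference of -0.46 ± 0.12 (adjusted p 0.485). Apoc1, an apolipoprotein, differed by -0.49 ± 0.14, while its hippocampal difference lay on the other side of 0, at 0.20.

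Prxl2b, a prostaglandin F synthase, was second by p among all genes, ranging from 10.38 to 10.64 (median 10.56) against 10.63 to 10.89 (median 10.75). All 9 CD33 ASO arrays lay below the control median, and its difference of -0.23 ± 0.05 (adjusted p 0.327) was below 0 in 6 of 6 chips. The calcium-dependent kinase Camk1g differed by -0.41 ± 0.11 and the growth factor Bmp7 by -0.38 ± 0.11. The cell-cycle repressor subunit Lin37 differed by -0.45 ± 0.12, with 3 CD33 ASO and 9 control arrays detecting it, and the cytochrome Cyp2d22 by -0.26 ± 0.07. Of the 20 genes, 6 had other tested probes, whose differences were nearer to 0 in each case. Grk6 stood at 0.32 on the probe used and at -0.04, the other side of 0, on its second probe. Camk1g stood at -0.41 and -0.02, Apoc1 at -0.49 and -0.05, and Gpnmb at -0.81 and -0.46. Mfap2 stood at 0.28, with 0.10 and 0.14 on its other probes, and Gria3 at 0.37, with 0.11 and 0.22. The 20 genes were taken for their p at 14 days, so these values describe them. In the other animals, those of 28 days, all 20 lay on the same side of 0, where 61.4% of all genes did. Of the 20, 14 had an unadjusted p under 0.05 there, against 8.62% of all genes in either direction. The adjusted threshold was passed there by 9 of the 20, against 0.472% of all genes. Both durations shared 1 estimate of the spread per gene, so their p-values are not independent.

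**Figure D2:**
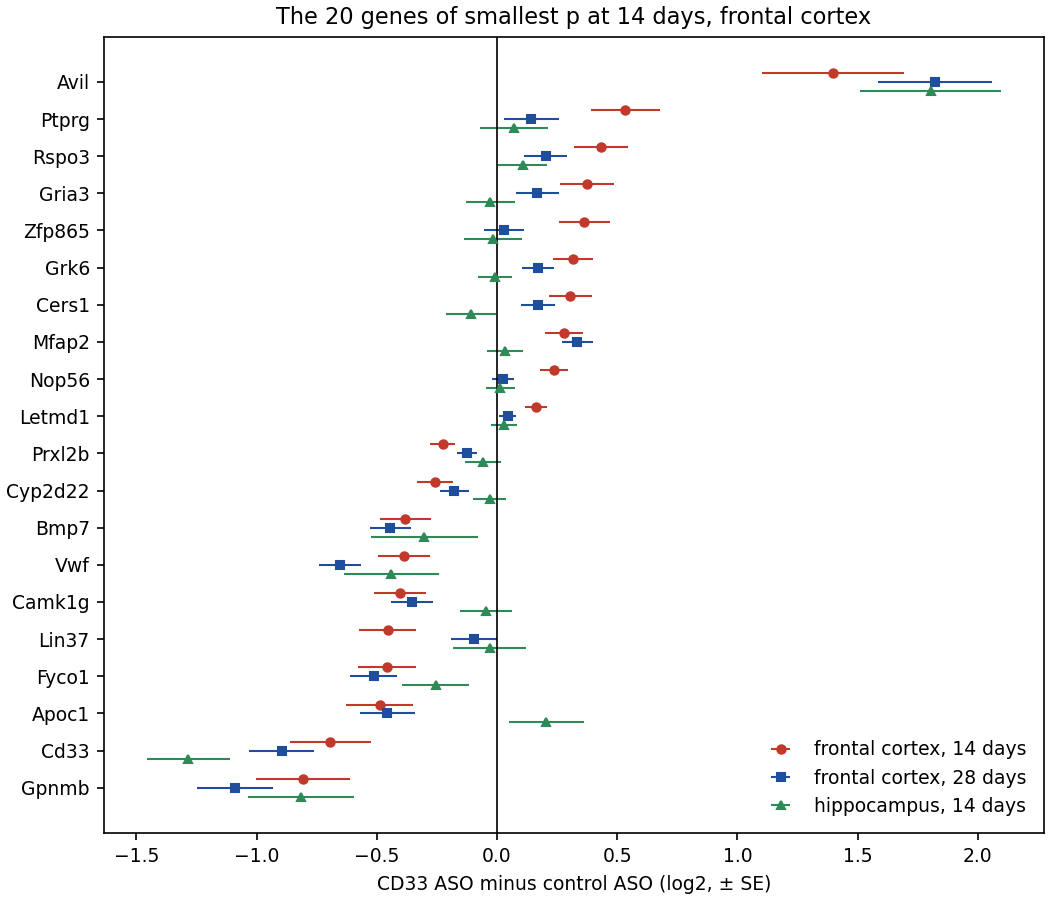
CD33 ASO minus control ASO (log2, bars ± SE) for the 20 genes of smallest p at 14 days in the frontal cortex, 10 per direction, with the same genes at 28 days and in the hippocampus at 14 days. All 20 keep their side of 0 at 28 days; none passed the adjusted threshold at 14 days.

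The 46 genes past the threshold at 28 days were read at 14 days, in other animals. Both readings came from 1 model, whose estimate of the spread used the arrays of both durations. Through that spread the 14-day arrays entered the choice, so the 14-day p-values of these genes are not independent of it. Of the 46 genes, 44 (95.7%) lay on the same side of 0, where 61.4% of all 9741 genes did. These were 14 of the 15 higher and 30 of the 31 lower ones. An unadjusted p under 0.05 in the same direction was reached by 27 of the 46 (58.7%), 8 higher and 19 lower, against 2.43% and 2.62% of all genes. Differences at 14 days were mostly smaller: 42 genes had the same sign and a smaller value, and the median ratio of the 14-day to the 28-day difference was 0.555, from -0.043 to 1.15. The median of the 15 higher genes was 0.13 at 14 days and 0.33 at 28 days, and that of the 31 lower genes -0.26 and -0.47. The genes were chosen for their 28-day values, which favours large values at 28 days, and the part of this in the ratio was not tested. The difference between the 2 durations had an unadjusted p under 0.05 for 15 of the 46 genes and an adjusted p under 0.05 for 0 of them. Infusion length and the pump-free interval differ together between the 2 durations and cannot be told apart. Over all genes that difference called 0, with 261 (2.68%) under an unadjusted p of 0.05.

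**Figure D3:**
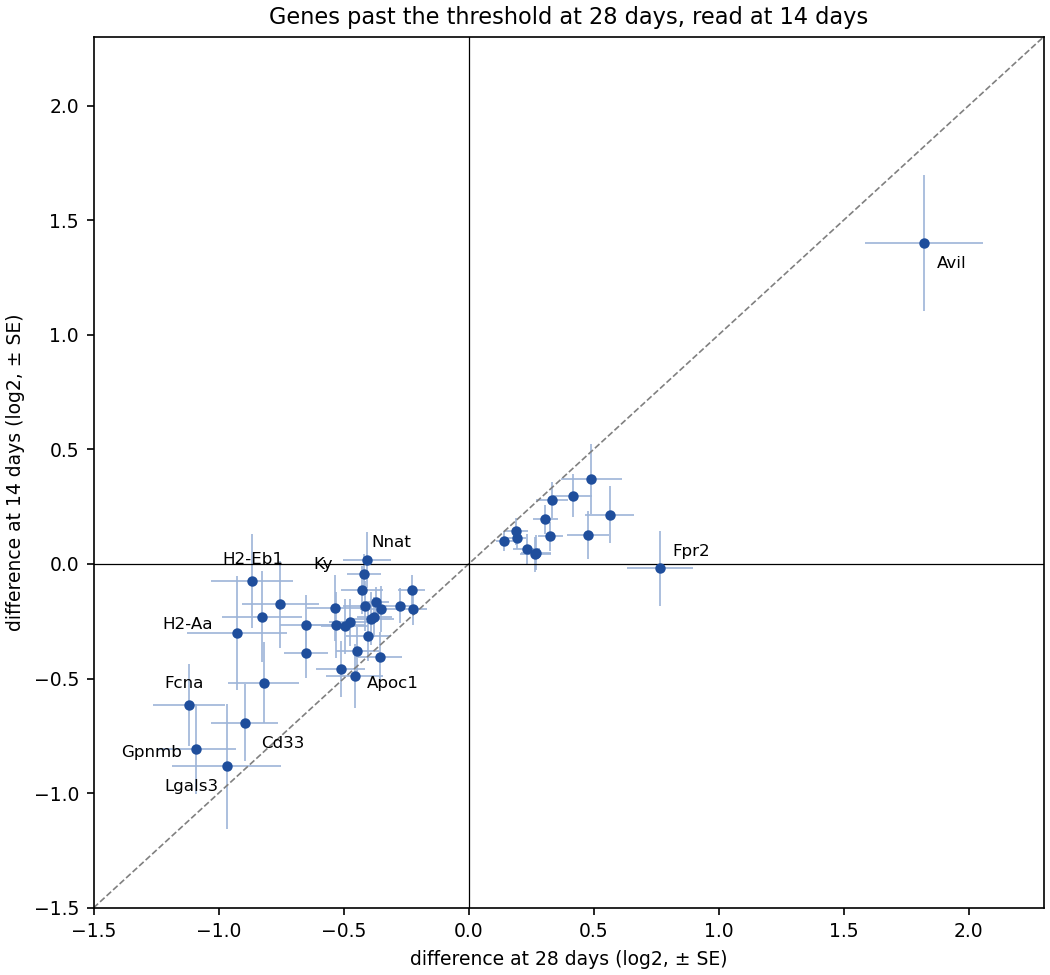
Difference at 14 days against difference at 28 days (log2, bars ± SE) in the frontal cortex for the 46 genes past the threshold at 28 days; the dashed line marks equal differences. Of the 46 points, 44 lie on the same side of 0 in both, and most lie nearer to 0 at 14 days.

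Of the 46, 4 belonged to the list of plaque-associated microglial genes (Gpnmb, Lgals3, Lyz1 and Lyz2), with 14-day differences of 0.54 to 0.91 times those at 28 days. Another 2, Fcna and Ms4a7, belonged to the border macrophage list, at 0.55 and 0.63 times. The 4 of the MHC class II list had ratios of 0.08 to 0.33, and Fpr2, in the list of cytokines, chemokines and sensors, one of -0.02. The differences between these ratios were not tested. A change of the control level between the durations enters each ratio, as does a change of the CD33 ASO level. Lgals3, galectin-3 of activated microglia and macrophages, ranged from 7.94 to 9.10 (median 8.53) with CD33 ASO and from 8.04 to 10.31 (median 9.44) with control at 14 days. All 9 CD33 ASO arrays lay below the control median, with overlapping ranges. Its differences were -0.88 ± 0.27 at 14 days (adjusted p 0.743) and -0.97 ± 0.22 at 28 days (adjusted p 0.0174). Fcna, ficolin A of the lectin complement pathway, which is made by macrophages, ranged from 5.23 to 6.21 (median 5.67) against 5.17 to 6.75 (median 6.28). It was detected on 3 CD33 ASO and 7 control arrays and differed by -0.62 ± 0.18, against -1.12 ± 0.14 at 28 days. In the 28-day arrays Fcna ranged from 4.89 to 6.14 with CD33 ASO and from 6.09 to 7.43 with control. Ms4a7, a marker of macrophages at the borders of the brain, ranged from 6.32 to 7.00 (median 6.81) against 6.46 to 7.94 (median 7.32), a difference of -0.52 ± 0.18 against -0.82 ± 0.14. For Fcna and Ms4a7 too, all CD33 ASO arrays lay below the control median. Gpnmb stood at -0.81 and -1.09 at the 2 durations. Its mean level was 10.12 ± 0.59 (SD) in the 14-day and 10.71 ± 0.32 in the 28-day controls, and 9.31 ± 0.44 and 9.62 ± 0.40 with CD33 ASO. The change of the control levels between durations was not tested. The lysozymes Lyz1 (-0.26 and -0.47) and Lyz2 (-0.27 and -0.50), the Alzheimer risk gene Ms4a6d (-0.31 and -0.40) and the lysosomal protease Ctsc (-0.18 and -0.28) had their 9 CD33 ASO arrays below the control median as well.

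The MHC class II genes, whose products present peptides to CD4+ T cells, had small differences at 14 days beside their 28-day values. H2-Eb1, a class II beta chain, ranged from 6.43 to 7.71 (median 7.16) with CD33 ASO and from 6.40 to 7.94 (median 7.24) with control. The groups overlapped over nearly their whole range, with a difference of -0.07 ± 0.21, against -0.87 ± 0.16 at 28 days (adjusted p 0.00201). The alpha chain H2-Aa ranged from 6.19 to 7.43 (median 6.80) against 5.82 to 8.07 (median 7.31), with -0.30 ± 0.25 at 14 and -0.93 ± 0.20 at 28 days. H2-Ab1, the partner of H2-Aa, stood at -0.23 ± 0.20 and -0.83 ± 0.16. Cd74, the invariant chain that class II molecules need for assembly, stood at -0.18 ± 0.19 and -0.75 ± 0.15. The difference between the durations had an unadjusted p of 0.0042 for H2-Eb1, 0.0238 for H2-Ab1, 0.0226 for Cd74 and 0.056 for H2-Aa, each with an adjusted p of 1.00. Control arrays differed between durations as well: mean H2-Eb1 was 7.21 ± 0.46 (SD, n = 9) in the 14-day and 7.63 ± 0.42 (n = 14) in the 28-day controls, and 7.14 ± 0.37 and 6.77 ± 0.51 with CD33 ASO. Of the 9 class II genes tested, 8 were below 0 at 14 days with a median of -0.15, 0 had an unadjusted p under 0.05, and 4 passed the threshold at 28 days.

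**Figure D4:**
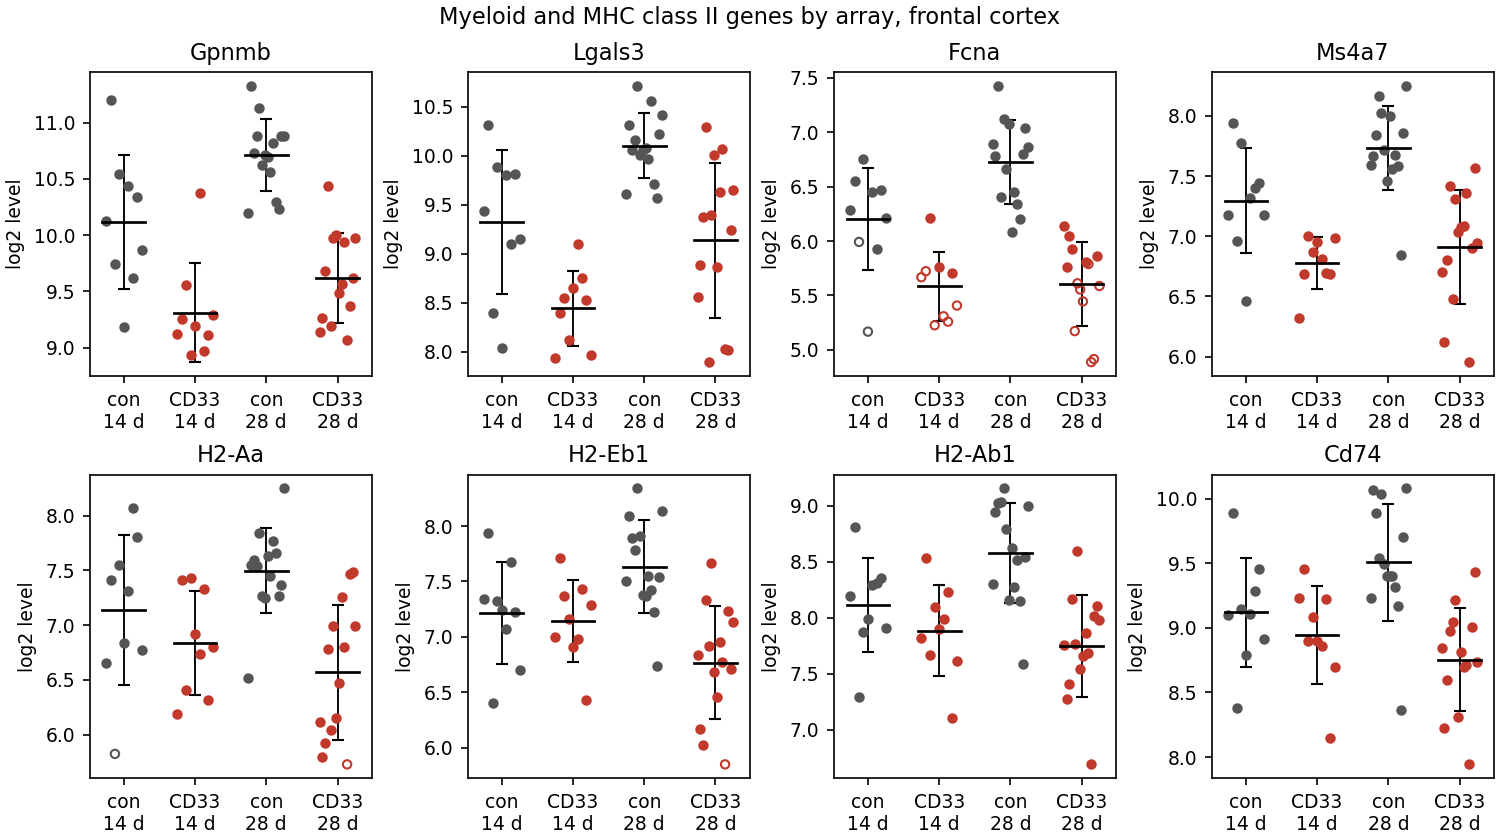
Normalized log2 level by frontal cortex array of 4 myeloid genes (top) and 4 MHC class II genes (bottom); filled points are detected, lines are means, bars SD, con is control ASO. At 14 days the ranges of the CD33 ASO and control arrays overlap for every gene, and the group means of the lower genes lie closer together than those of the upper genes.

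Some other genes of the 28-day set were near 0 at 14 days. Fpr2, a formyl peptide receptor of phagocytes, ranged from 5.00 to 5.61 (median 5.33) against 5.17 to 5.66 (median 5.28), and no array of either group detected it. Between these undetected levels the fitted difference was -0.02 ± 0.16, and at 28 days it was 0.77 ± 0.13 (detected on 8 CD33 ASO arrays and 1 control array), with an unadjusted p of 0.00052 and an adjusted p of 1.00 for the difference between them. Neuronatin (Nnat), named for its sign, was the other gene on opposite sides of 0, at 0.02 against -0.41. Ky stood at -0.04 against -0.42 and Tcf7l1, a Wnt-pathway repressor, at 0.05 against 0.27. The histone gene H4c8 (-0.27 against -0.65), the endothelial receptor Acvrl1 (-0.19 against -0.53), the proteoglycan Lum (-0.27 against -0.53) and Emc1 (0.13 against 0.48) had 14-day differences of 0.26 to 0.50 times the 28-day ones. Sh3d21 (0.21 against 0.56) and Czib (0.12 against 0.33) lay in the same range. Another tested probe gave -0.01 for Emc1 and 0.22 for Czib at 14 days. Gpld1, a phospholipase that cleaves GPI anchors, stood at 0.30 against 0.42, Nek3, a kinase, at 0.19 against 0.31, and Gdpd3 at 0.37 against 0.49, with all or 8 of 9 CD33 ASO arrays above the control median.

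Pathway and cell type lists were then read at 14 days, 32 lists with 4 to 26 tested genes each. In every list 0 members passed the adjusted threshold, as did 0 of all genes. Among all genes 50.6% were below 0 with a median of -0.001, and the counts below 0 that follow are read against this share. Under median scaling of the arrays 60.7% of all genes were below 0, and each list count was the same or higher. There it was 23 of 26 for plaque-associated microglia, 17 of 19 for Alzheimer risk genes and 12 of 14 for ITAM and ITIM signalling. Of 5 Siglec, SIRP and related inhibitory receptors tested, Cd33 itself and Lilrb4a, an inhibitory receptor (-0.28 ± 0.14, detected on 1 CD33 ASO and 2 control arrays), had an unadjusted p under 0.05, while Siglech stood at 0.03 ± 0.14 and Sirpa at 0.11 ± 0.07. Of 14 genes of ITAM and ITIM signalling 12 were below 0 with a median of -0.09. They included Inpp5d, the lipid phosphatase SHIP1 (-0.21 ± 0.09), the adaptor Hcst (-0.20 ± 0.10), Trem2 (-0.13 ± 0.09) and Tyrobp (-0.09 ± 0.09). Inpp5d and Hcst had an unadjusted p under 0.05, and at 28 days the list's median was -0.01.

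Of 26 genes of plaque-associated microglia 20 were below 0, with a median of -0.07 and 4 lower and 1 higher at an unadjusted p under 0.05. The 4 lower ones were Gpnmb, Lgals3, Lyz2 and Lyz1, and the higher one was Timp2 (0.15 ± 0.07), an inhibitor of matrix proteases. Apoe (-0.07 ± 0.05), Cst7 (-0.08 ± 0.11), Clec7a (-0.11 ± 0.23) and Axl (-0.09 ± 0.06), other genes of that state, were within 2 standard errors of 0. Of 16 homeostatic microglial genes 12 were below 0, with a median of -0.09. Laptm5 (-0.14 ± 0.06) had an unadjusted p under 0.05, while P2ry12 stood at -0.23 ± 0.23, Tmem119 at -0.10 ± 0.10 and Aif1 at -0.09 ± 0.09. Border macrophage genes were below 0 in 6 of 7, with a median of -0.10, where Fcna and Ms4a7 stood apart from Mgl2 (-0.14 ± 0.15) and Stab1 (-0.10 ± 0.13). Of 19 Alzheimer risk genes 14 were below 0 (median -0.06), with Cd33, Ms4a6d and Inpp5d lower and Celf1 (0.17 ± 0.08) higher at an unadjusted p under 0.05. The complement genes (7 of 10 below 0, median -0.05), interferon-stimulated genes (11 of 18, median -0.04), cytokines, chemokines and sensors (15 of 22, median -0.04), MHC class I genes (7 of 13, median -0.04) and lysosomal genes (13 of 21, median -0.05) lay closer to the value of all genes. Among them the chemokine Ccl12 (-0.34 ± 0.15) and Ctsc were lower and Ifi27 (0.14 ± 0.06) higher at an unadjusted p under 0.05. Genes of APP and its processing were split, 8 of 16 below 0 (median -0.002), with App at 0.07 ± 0.06. Of these the gamma-secretase subunit Aph1a (0.27 ± 0.11) was higher and Apbb1 (-0.10 ± 0.05) lower at an unadjusted p under 0.05. Other leukocyte genes were below 0 in 2 of 6 (median 0.05).

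Genes of neurons and glia had small differences too. General neuronal and synaptic genes were below 0 in 8 of 16 (median 0.01, and -0.02 under median scaling), neocortical layer genes in 6 of 15 (median 0.02) and interneuron genes in 5 of 10 (median 0.01, and -0.02 under median scaling). Gria1, another AMPA receptor subunit (0.24 ± 0.10), the synaptic vesicle protein gene Syt1 (0.12 ± 0.06) and the layer gene Etv1 (0.41 ± 0.17) were higher at an unadjusted p under 0.05. Myelin genes were below 0 in 10 of 12, with a median of -0.08. Opalin, an oligodendrocyte membrane protein, ranged from 9.11 to 10.36 (median 9.86) against 9.82 to 10.88 (median 10.29), and 8 of 9 CD33 ASO arrays lay below the control median. Its difference was -0.49 ± 0.17, and that of Cldn11, the tight junction protein of myelin, -0.13 ± 0.05. Oligodendrocyte precursor genes were below 0 in 6 of 8 (median -0.08), astrocyte genes in 9 of 13 (median -0.03, with the sodium pump subunit Atp1b2 at -0.18 ± 0.06) and reactive astrocyte genes in 12 of 16 (median -0.12), where Cd44, a hyaluronan receptor, stood at -0.26 ± 0.12 and Gfap at 0.01 ± 0.10. Immediate early genes, which mark recent neuronal activity, were below 0 in 13 of 15 with a median of -0.19, close to the -0.18 of 28 days. Of these Per1 (-0.24 ± 0.09) had an unadjusted p under 0.05, while Arc stood at -0.49 ± 0.30 and Fos at -0.38 ± 0.32. Heat shock chaperones (7 of 11 below 0, median -0.03), with Hspa1a at 0.19 ± 0.08, and proliferation genes (5 of 7, median -0.02) lay on both sides of 0. RNase H and oligonucleotide-binding proteins were below 0 in 7 of 9 (median -0.10), with Rnaseh1, the enzyme that cuts RNA paired with DNA, at -0.14 ± 0.09 and Pspc1, a paraspeckle protein, at -0.28 ± 0.11.

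**Figure D5:**
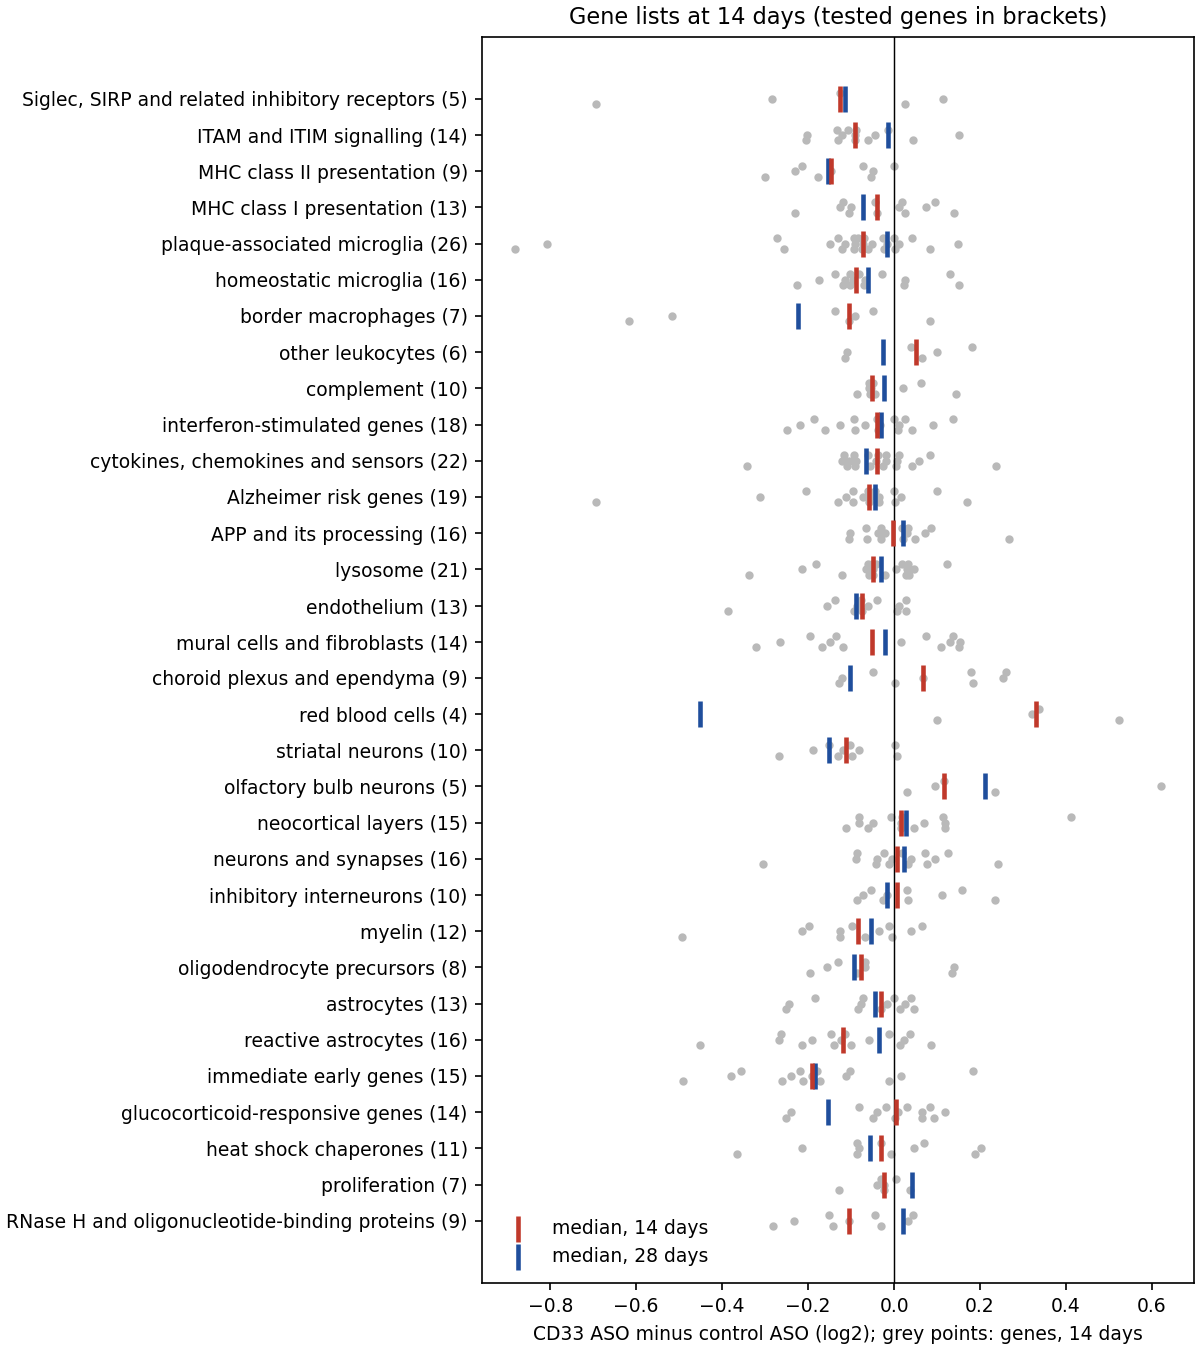
CD33 ASO minus control ASO (log2) in the frontal cortex for the tested genes of 32 lists; grey points are genes at 14 days, red and blue bars are list medians at 14 and 28 days. Apart from red blood cells, the 14-day medians lie between -0.19 and 0.12; the red blood cell median lies at 0.33 at 14 days and -0.45 at 28 days.

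Genes of tissue that a piece in front of the cut can include, and of vessels and blood, were measured alongside. Striatal neuron genes were below 0 in 8 of 10 (median -0.11), with Drd2 at -0.27 ± 0.15. Their mean level ranged from 9.68 to 10.26 on CD33 ASO arrays and from 9.64 to 10.67 on control arrays. Olfactory bulb genes were below 0 in 0 of 5 (median 0.12), with mean levels from 7.97 to 9.12 and from 7.98 to 9.07 in the same order. Choroid plexus and ependymal genes were below 0 in 3 of 9 (median 0.07), with mean levels from 5.91 to 6.53 and from 5.88 to 6.27. Red blood cell genes were below 0 in 0 of 4 (median 0.33), with mean levels from 9.05 to 10.95 and from 8.48 to 10.10. All of these ranges overlapped between the groups. Endothelial genes were below 0 in 9 of 13 (median -0.08), with Vwf and Ramp2 (-0.16 ± 0.07) at an unadjusted p under 0.05 and Ly6c1 at -0.09 ± 0.08, and mural cell and fibroblast genes in 7 of 14 (median -0.05), with the peptidase Anpep at -0.32 ± 0.13. With the mean levels of the striatal, choroid plexus and red blood cell genes as covariates, Cd33 stood at -0.65 and Avil at 1.38, and 0 genes were called. No microglial, macrophage, endothelial or olfactory bulb list was among these covariates. The part of tissue makeup in the differences, those of Cd33 and Avil included, was not tested.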

How the data were processed

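The authors deposited a signal intensity for 25697 probes, which from its values (some below 0, medians that differ between arrays) had its background subtracted and was not normalized between arrays. Per the file headers, a detection p-value stands beside each deposited intensity. A second deposited table holds processed log2 values for 19542 probes, with its steps not stated, and served as an alternative only. Per the submitters' processing notes, the tools were BeadStudio, GenomeStudio and Partek, with no versions or settings stated. From the intensities, levels were computed with normexp background correction from detection p-values (offset 16), quantile normalization over 90 arrays and log2. A probe was kept where 9 or more arrays had its detection p-value below 0.01, and gene symbols came from the platform annotation, which can be old (18348 probes had 1 symbol, 7349 none). The probe of highest mean per gene left 9741 genes. They were tested with limma 3.58.1 in R 4.3.3 (lmFit, eBayes, Benjamini-Hochberg, two-sided) in a model of 4 group means over the 46 frontal cortex arrays. The number of arrays limits the precision. Differences within the hippocampus came from a separate fit of the hippocampal arrays. Tissue differences came from all 90 arrays, with animal as random block (consensus correlation 0.128). Each array of a group is another animal. The p-values rest on the spread between arrays of a group, which holds chip differences beside those between animals, as these models have no chip term. The test was tried on simulated data. Alternatives varied scaling, background, offset, filter, arrays, chip, replicate number, probes and covariates.

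The comparison, gene lists and named genes were chosen with earlier results of these data known. Named were Cd33, the 10 genes of smallest p per direction, genes without overlap, up to 10 higher and 15 lower genes called at 28 days, up to 4 genes of smallest p per list, and the 5 of smallest p for each difference of effects. Tyrobp, Siglech, Apoe, Cst7, Clec7a, Axl, P2ry12, Tmem119, Fos, Timp2 and Nnat are outside this rule and were chosen after their values were seen, as were Fkbp5, Plin4 and Ddit4. Of 549 list members, 450 had a named probe and 379 were tested. No genome build is named, so no coordinates are given.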

Additional observations from a re-analysis of the deposited data

Results flagged for a closer look

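In 48 genes, each with 2 groups of 9 arrays, the highest or lowest array was set against its group by Dixon's ratio. Of the 96 groups 6 stood out, where chance gives about 1 in 20, or 4.8. Ttr, the transthyretin gene of the choroid plexus, reached 11.02 in CD33 ASO replicate 9, where the next array stood at 7.91. Gpnmb reached 10.38 in CD33 ASO replicate 6, with the next at 9.56; leaving out any 1 array put the Gpnmb difference between -0.94 and -0.67. Ms4a7 was lowest in CD33 ASO replicate 1 at 6.32, with the next at 6.68. Among the controls, Letmd1 was 9.66 in replicate 4 (next 9.83), Emc1 was 6.24 in replicate 3 (next 6.72) and Lin37 was 6.47 in replicate 6 (next 6.22).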

How the results depend on the processing

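Of 12 alternatives to the analysis at 14 days, 11 called 0 genes, and the fit on the 18 arrays alone called 1, Avil; the cause was not tested. Leaving any 1 of the 18 arrays out of the model over the frontal cortex arrays of both durations called 0 genes each time. These fits also held the 28-day arrays, so they do not test the call of Avil in the 18 arrays alone. Of 465 values of 39 named genes under these alternatives, 464 kept their direction and their side of the threshold, 1 (Avil) passed it and 0 reversed. For Avil the adjusted p in limma lay between 0.0038 and 0.531, and for Cd33 between 0.115 and 0.700. The Cd33 difference lay between -0.69 and -0.50 over the alternatives and between -0.75 and -0.62 without single arrays, with exact permutation p-values of 8.23e-05 to 0.0039 and 4.11e-05 to 0.000288. The differences between durations and between tissues called 0 genes under every alternative run. The share of the 28-day genes on the same side of 0 at 14 days was 93% to 97.8%, with 40 to 65 genes called at 28 days, and 90% to 97.9% without single arrays, an alternative added after seeing the data.

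Replicate numbers are shared by the 2 groups. Same-numbered arrays correlated in their deviations from the group means at -0.013 to 0.428, over 0.1 in 5 of 9 pairs, and 6 of 18 arrays correlated best with their own number, while all 9 pairs shared a chip. With the replicate block 0 genes were called, and the exact sign-flip test of the 9 paired Cd33 differences (-0.69) gave p 0.0039, the smallest it can give. The median standard error of a difference was 0.0882 at 14 days with 9 arrays per group, against 0.0707 at 28 days with 14. Dim genes such as Avil and Fcna, near the detection limit, have understated ratios.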

Other observations

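Red blood cell genes lay on opposite sides of 0 at the 2 durations. Hba-a1, a haemoglobin alpha chain, had a difference of 0.32 ± 0.19 at 14 days and -0.32 ± 0.16 at 28 days, and Alas2, the erythroid enzyme of haem synthesis, 0.52 ± 0.35 and -0.44 ± 0.28. The difference between the durations had an unadjusted p of 0.0135 for Hba-a1 and 0.0359 for Alas2 in limma, and neither passed the adjusted threshold. Genes that respond to glucocorticoids also differed in their spread over 0: 6 of 14 were below 0 at 14 days (median 0.01, and -0.01 under median scaling) and 14 of 14 at 28 days (median -0.15). The median of all genes was -0.001 at 14 days and 0.002 at 28 days. Fkbp5, which binds the glucocorticoid receptor complex, stood at 0.07 and -0.22, Ddit4 at 0.002 and -0.23, and the lipid droplet gene Plin4 at -0.25 and -0.83. Per1, also in this list, was further below 0 at 14 days, at -0.24 and -0.15.

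The genes of smallest p for the difference between durations were Xpo6, Capza1, Fpr2, Gfm2 and Ky. Xpo6, a nuclear exporter of actin, stood at -0.20 ± 0.06 at 14 days and 0.11 at 28 days (unadjusted p 0.000196). The actin-capping gene Capza1 stood at 0.23 ± 0.09 and -0.20, and the mitochondrial translation factor Gfm2 at -0.14 ± 0.05 and 0.09. For the difference between tissues these were Atf4, Mpv17l2, H2az1, Apoc1 and Adra2c. The stress-response factor Atf4 stood at 0.09 ± 0.07 in the cortex and -0.29 in the hippocampus, and the adrenergic receptor Adra2c at 0.06 ± 0.10 and -0.43. None of these passed the adjusted threshold.

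Of 810 kept probes without a gene name, 0 passed the adjusted threshold at 14 days in limma and 54 had an unadjusted p under 0.05, with a smallest adjusted p of 0.350.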
